A study of Mus musculus with 9 samples.

Results

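Zfp352/Zfp353-DKO mouse embryonic stem cells were compared with Zfp352-KO cells across all measured genes, using the 6 libraries that carry these genotype labels (3 of each) out of 9 libraries in the series. The remaining 3 libraries were of the Parental line, in which neither gene was deleted, and their values are given as background. All lines were EB5 embryonic stem cells, a male line derived from E14tg2a of strain 129Ola that carries a blasticidin resistance cassette at 1 Oct3/4 allele, grown without feeder cells on gelatin with serum and leukemia inhibitory factor. Zfp352 had been removed from both edited genotypes by CRISPR-Cas9, which cuts DNA at a site set by a guide RNA, and the Zfp352/Zfp353-DKO line lacked Zfp353 in addition. The comparison therefore asks which transcripts differ between cells that lack both genes and cells that lack Zfp352 alone. The labels name no clone, so the loss of Zfp353 and any other difference between the edited lines cannot be told apart. Nor do they say whether the 3 libraries per genotype were grown as separate cultures, so the p-values reflect library-to-library spread alone, and that spread may be technical.

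Zfp352 is a zinc finger gene transcribed in mouse embryos around the 2-cell stage. Embryonic stem cells in serum are a mixed culture: most cells express the pluripotency factors, a small share passes through a state that transcribes 2-cell-stage genes such as the Zscan4 family, and some cells flatten and differentiate. Genes for the contractile cytoskeleton and the extracellular matrix are characteristic of spread and mesenchymal cells. In bulk RNA, fewer cells of a type and less RNA per cell cannot be told apart.

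Levels are given as TPM, a unit normalized for transcript length and depth. Differences are log2 fold changes of Zfp352/Zfp353-DKO over Zfp352-KO with their standard errors (SE), from edgeR's quasi-likelihood test on expected counts. A gene was called when its Benjamini-Hochberg adjusted p was under 0.05 over all 14300 tested genes. That edgeR fit, without the alternatives given later, is named the main fit. Expected counts summed to between 16599004 and 22044820 per library in the 6 libraries. Pairs of libraries within a genotype differed by a chi-square of 2.44 to 6.68 per degree of freedom and pairs across the edited genotypes by 2.36 to 7.32, so these ranges overlapped. Values rose with transcript length in Zfp352-KO library 1 (Spearman's rho of 0.393 across genes, relative to the mean of all libraries) and Zfp352/Zfp353-DKO library 3 (0.362), and lay between -0.128 and 0.191 in the other 4. The summed level of 8 defining embryonic stem cell markers was 6910 to 7090 TPM in Zfp352-KO libraries, against 7060 to 7140 TPM with both genes deleted. None of the 8 was called, among them Pou5f1 (log2 fold change 0.02 ± 0.05, adjusted p = 0.98), Nanog (-0.05 ± 0.04, adjusted p = 0.92) and Sox2 (0.10 ± 0.04, adjusted p = 0.75). Of 13 core pluripotency genes DESeq2 called none either. With the trend in GC content and length removed, edgeR called 1 of them lower, Dppa2. In the main fit Sox2 and Dppa2 (-0.18 ± 0.05) had an unadjusted p under 0.05. The shares over all genes were 3.04% higher and 3.38% lower. The estimate for Pou5f1 turned to -0.01 with the trend in GC content and length removed.

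The targeted gene Zfp352 had rounded expected counts of 3, 8 and 10 in Zfp352-KO libraries 1, 2 and 3, and of 1, 1 and 3 in the Zfp352/Zfp353-DKO libraries, against 47, 52 and 41 in Parental libraries. Both edited genotypes thus lay far under the Parental level, in accord with their labels. The log2 fold change between them was -1.99 ± 0.62 and was not called (edgeR unadjusted p = 0.0047, adjusted p = 0.45). An exact two-sided permutation test of log2(TPM + 0.1) gave p = 0.1, the smallest that 3 against 3 libraries allow. A row for Zfp353 was not found under that symbol or under Zfp353-ps, the RefSeq name of the locus, so its loss was not checked here. Of genes within 500 kb of either locus, 1 was tested, Zfp352 itself.

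The difference between the edited genotypes was small in number and size. Of 14300 tested genes 15 were called (0.105%), 13 lower (0.0909%) and 2 higher (0.014%) in Zfp352/Zfp353-DKO cells. Of these, Igf2 and Rpl26 had a log2 fold change of 1 or more in size. The median log2 fold change over all tested genes was 0.001 and the median absolute value 0.064. Against Parental cells, in the same fit, 1010 genes were called for Zfp352-KO, and the Zfp352/Zfp353-DKO count was 1211; these comparisons share libraries with the present one. No chromosome stood apart: the median log2 fold change ran from -0.011 on chromosome X to 0.01 on chromosome 17. The called genes lay on 8 chromosomes, with 4 on chromosome 6 and 3 each on chromosomes 7 and 11.

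**Figure D1:**
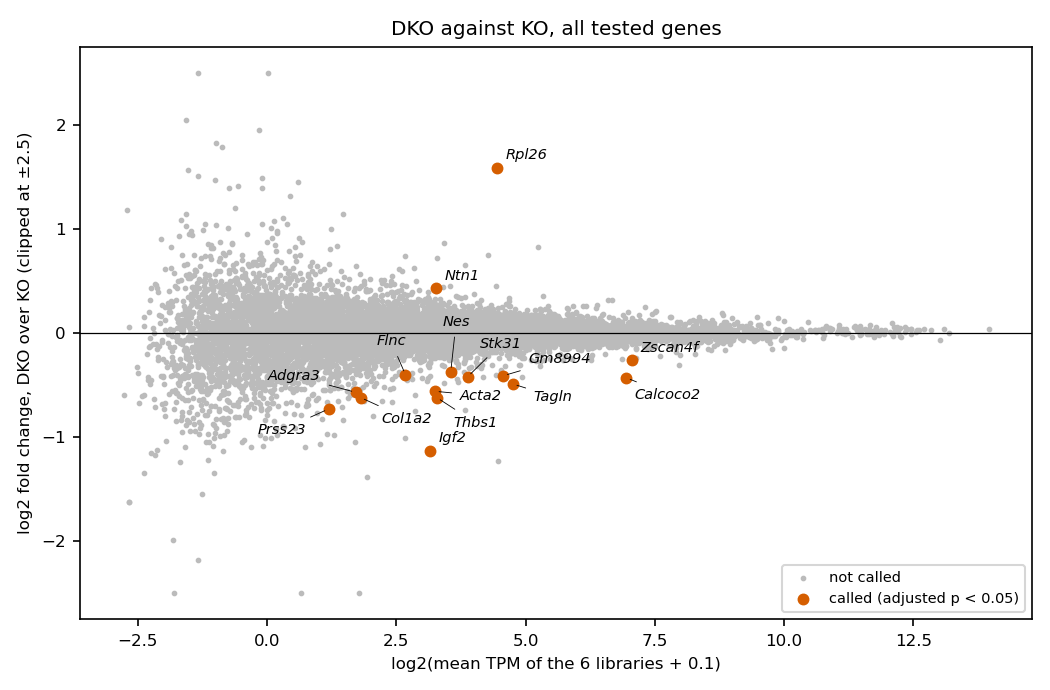
Log2 fold change of Zfp352/Zfp353-DKO (DKO) over Zfp352-KO (KO) against log2 of the mean TPM plus 0.1, for 14300 tested genes. The 15 called genes are orange and named; 13 lie under 0, with Igf2 lowest at -1.13, and values beyond 2.5 in size are drawn at 2.5.

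Many of the calls depended on which libraries were fitted. With only the 6 libraries compared, 3 genes were called, Igf2, Thbs1 and Calcoco2, all lower. The same 3 genes were called when Zfp352/Zfp353-DKO library 1 was left out. Counts of calls were 4 without Zfp352/Zfp353-DKO library 2, 4 without Zfp352-KO library 3 (the same 3 genes and Gm4340), 6 without Zfp352-KO library 2, 9 without Zfp352-KO library 1 and 21 without Zfp352/Zfp353-DKO library 3. Leaving out Parental libraries 1, 2 and 3 gave 7, 10 and 15 calls. Igf2, Thbs1 and Calcoco2 kept their calls in all 9 of these omissions, Col1a2 and Ntn1 in 6, Tagln in 5, Flnc, Nes and Rpl26 in 4, Zscan4f in 3, Acta2 and Stk31 in 2, and Adgra3, Gm8994 and Prss23 in 1. All 15 genes kept their direction in every setting that was run.

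Promoter sequences of 3 of the genes called lower are shown because Igf2 had the smallest p and Acta2 and Col1a2 are called members of the actin and matrix lists. The sequences are from RefSeq (GRCm38.p6), cover the 250 bases before a transcription start, and are written 5′ to 3′ on the gene's strand; capitals mark matches to 3 motifs described next. The Igf2 window is at chr7:142661272-142661521 (minus strand, 1 of 4 Igf2 starts), the Acta2 window at chr19:34255374-34255623 (minus strand) and the Col1a2 window at chr6:4505368-4505617 (plus strand).
Igf2: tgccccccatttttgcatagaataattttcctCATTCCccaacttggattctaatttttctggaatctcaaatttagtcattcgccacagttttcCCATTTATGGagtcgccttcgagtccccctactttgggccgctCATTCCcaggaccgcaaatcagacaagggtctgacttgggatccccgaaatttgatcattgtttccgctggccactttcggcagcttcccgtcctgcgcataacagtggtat
Acta2: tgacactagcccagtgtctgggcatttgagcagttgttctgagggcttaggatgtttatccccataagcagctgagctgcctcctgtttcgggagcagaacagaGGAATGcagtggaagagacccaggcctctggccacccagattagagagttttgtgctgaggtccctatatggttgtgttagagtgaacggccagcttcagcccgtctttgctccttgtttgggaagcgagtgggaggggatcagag
Col1a2: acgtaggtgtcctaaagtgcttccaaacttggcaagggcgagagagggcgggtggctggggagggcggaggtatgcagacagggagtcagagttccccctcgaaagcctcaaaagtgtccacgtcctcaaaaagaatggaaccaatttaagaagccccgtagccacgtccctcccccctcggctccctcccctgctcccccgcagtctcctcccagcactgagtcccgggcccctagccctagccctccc

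The motifs searched on both strands were the CArG box, the TEAD motif GGAATG and the AP-1 motif TGANTCA. Serum response factor binds the CArG box at cytoskeletal genes. The box was matched only as CCWWWWWWGG, where W is A or T, so looser forms were not marked. All 3 motifs were chosen with the results known. Windows were found for 11 of the 15 called genes; Thbs1, Calcoco2, Ntn1 and Tagln had none. These 11 genes had 22 windows, some overlapping, of which 7 held the TEAD motif, 3 the AP-1 motif and 1 the CArG box. Several windows with a match were of the same gene. By gene, 5 of the 11 held the TEAD motif, 2 the AP-1 motif and 1 the CArG box. No share by gene was computed for all genes, so the shares that follow are by window. Over 14361 windows of tested genes the shares were 10.8%, 4.37% and 1.11%, and over all 32817 windows 12.6%, 6.75% and 1.47%. The CArG box match was in the Igf2 window shown, 155 bases before the start, with TEAD matches at 218 and 112 bases. The Acta2 window held a TEAD match at 146 bases. It also held ccctatatgg and ccttgtttgg, which each depart from the searched CArG pattern in 1 letter and were not marked or counted. The Col1a2 window held no match to the 3 motifs as searched. No matches in the printed windows overlapped. A match describes these letters and says nothing of binding in these cells.

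Igf2, an imprinted gene for a fetal growth factor that signals through the IGF1 receptor, had the smallest p of all genes. It was at 12.83, 10.65 and 12.85 TPM in Zfp352-KO libraries 1, 2 and 3, and at 5.31, 6.18 and 5.01 TPM in Zfp352/Zfp353-DKO libraries. Every Zfp352/Zfp353-DKO library lay under every Zfp352-KO library, and the Parental libraries lay between them at 7.13, 7.64 and 6.93 TPM. The log2 fold change was -1.13 ± 0.10, a 2.19-fold lower level (adjusted p = 7.0e-06). Set against Parental cells, Igf2 was at 0.70 ± 0.09 in Zfp352-KO (adjusted p = 0.00018) and, with Zfp353 deleted too, at -0.43 ± 0.10 (adjusted p = 0.014). Igf2 was also called in all 25 alternatives it was tested in, with log2 fold changes from -1.22 to -1.01. It was the single call of limma-trend on TPM. Igf2 spans positions 142650768 to 142666816 of chromosome 7 in mm10 (GRCm38).

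H19, the imprinted noncoding RNA gene next to Igf2 that is transcribed from the other parental allele, spans positions 142575530 to 142578146 of that chromosome. Its level was 149.85, 138.50 and 149.60 TPM in Zfp352-KO and 163.97, 171.79 and 182.19 TPM in Zfp352/Zfp353-DKO libraries, with no overlap. The log2 fold change of 0.25 ± 0.06 had an unadjusted p of 0.00046 and was not called in the main fit (adjusted p = 0.16). Without a filter beyond 1 count, H19 was among the 66 genes called. Among 25 imprinted genes tested, Igf2 was the 1 called in the main fit, and the median log2 fold change was -0.04. The share called lower over all genes was 0.0909%. With the trend in GC content and length removed, edgeR called 1 imprinted gene higher and 1 lower.

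Thbs1, the gene for thrombospondin 1, a secreted matricellular protein, was next. Its levels were 12.06, 11.91 and 11.07 TPM in Zfp352-KO and 7.05, 8.02 and 7.65 TPM in Zfp352/Zfp353-DKO libraries. The groups did not overlap, and both lay under the Parental libraries at 17, 16.88 and 19.88 TPM. The log2 fold change was -0.62 ± 0.07 (adjusted p = 0.00022). Against Parental the Zfp352-KO value was -0.66 ± 0.06, and the Zfp352/Zfp353-DKO value was -1.28 ± 0.07.

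Calcoco2 is the mouse counterpart of the human gene for NDP52, a receptor of selective autophagy that binds cargo and LC3 family proteins. Whether the mouse protein acts alike was not examined here. Its levels of 139.11, 150.24 and 136.98 TPM in Zfp352-KO libraries overlapped those of Parental libraries (166.04, 140.40 and 153.05 TPM). The Zfp352/Zfp353-DKO libraries were lower, at 100.26, 102.81 and 113.19 TPM. Calcoco2 fell by 0.43 ± 0.06 on the log2 scale (adjusted p = 0.0025). It was not called in Zfp352-KO against Parental (log2 fold change -0.15 ± 0.06, adjusted p = 0.10), while it was at -0.58 ± 0.06 in Zfp352/Zfp353-DKO cells (adjusted p = 2.1e-06).

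**Figure D2:**
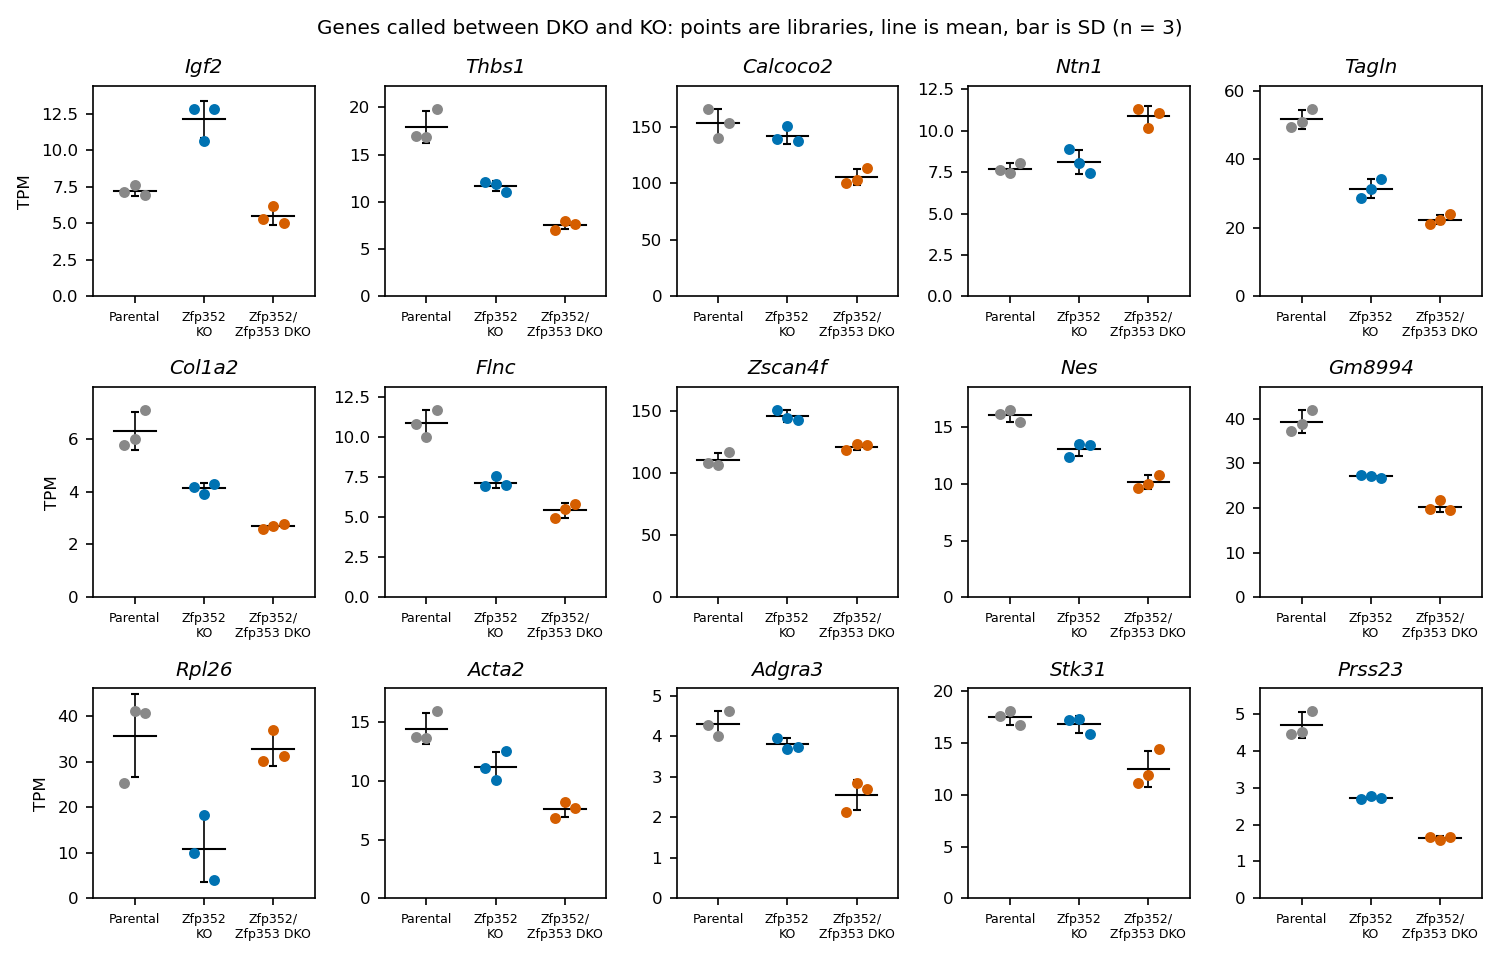
TPM of the 15 called genes in each of 9 libraries (points), with the mean (line) and SD (bar) of each genotype, n = 3; each axis starts at 0. In each panel the 3 Zfp352-KO and the 3 Zfp352/Zfp353-DKO points do not overlap; in Igf2 the Zfp352-KO points are the highest, and in Rpl26 they are the lowest.

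Among genes of the contractile cytoskeleton, Tagln and Acta2 were called lower. Tagln, which encodes transgelin, an actin-binding protein of smooth muscle and spread cells, was at 28.67, 31.34 and 34.39 TPM in Zfp352-KO and at 21.16, 22.19 and 23.91 TPM in Zfp352/Zfp353-DKO libraries. Tagln fell by 0.49 ± 0.08 on the log2 scale (adjusted p = 0.015). Acta2, the gene for smooth muscle alpha-actin, was at 11.08, 10.06 and 12.53 TPM in Zfp352-KO and at 6.86, 8.22 and 7.72 TPM in Zfp352/Zfp353-DKO libraries, a fall of 0.56 ± 0.10 (adjusted p = 0.034). Neither gene's groups overlapped. Parental libraries were above both genotypes, at a mean of 51.8 ± 2.77 TPM (SD, n = 3) for Tagln and 14.5 ± 1.33 TPM for Acta2.

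Of 19 tested genes of the contractile actin list, Tagln and Acta2 were called lower and none higher, against 0.0909% and 0.014% of all genes. The estimates of all 19 were under 0, with a median of -0.13 beside 0.001 for all tested genes. In 7 of the 19 the libraries were lower without overlap, against 5.6% of all genes. Members that did not pass included Tpm1, a tropomyosin gene (log2 fold change -0.24 ± 0.05, adjusted p = 0.10), Cnn2, a calponin gene (-0.24 ± 0.07, adjusted p = 0.42) and Zyx, the focal adhesion gene for zyxin (-0.19 ± 0.08, adjusted p = 0.66). DESeq2 called 3 members lower, and the fit of 6 libraries and limma-trend called none. Flnc, the gene for the actin crosslinker filamin C, was outside the list and was also lower, at 6.93, 7.57 and 6.99 TPM in Zfp352-KO and 4.94, 5.54 and 5.85 TPM in Zfp352/Zfp353-DKO libraries (-0.40 ± 0.07, adjusted p = 0.026).

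Of the matrix genes, Thbs1 and Col1a2 were called lower. Col1a2, which encodes a chain of type I collagen, was at 4.17, 3.92 and 4.30 TPM in Zfp352-KO and at 2.59, 2.69 and 2.77 TPM in Zfp352/Zfp353-DKO libraries, without overlap. The log2 fold change was -0.62 ± 0.10 (adjusted p = 0.015). Its partner chain gene Col1a1 was at 5.09, 5.41 and 6.08 TPM and at 3.63, 3.80 and 4.19 TPM, with -0.52 ± 0.10, and missed the threshold (adjusted p = 0.062). Col3a1, another fibrillar collagen gene, had the lowest estimate of the list at -1.10 ± 0.22 (adjusted p = 0.07). In all, 2 of 21 tested collagen and matrix genes were called lower, Thbs1 and Col1a2, and none higher. Over all genes the shares were 0.0909% and 0.014%. DESeq2 called 4 of them lower, where it called 0.161% of all genes in either direction. The fit of 6 libraries called 1, Thbs1, and limma-trend called none. The list median was -0.16, and 9 of 21 genes were lower and 2 higher without overlap, against 5.6% and 5.49% of all genes. Col6a2, a type VI collagen chain gene, was at 0.46 ± 0.22 and not called (adjusted p = 0.77).

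Of 15 fibroblast and mesenchyme markers, Tagln and Acta2 were again the 2 called lower, against 0.0909% of all genes. The list median was -0.25 in the main fit and -0.17 in the fit of 6 libraries. DESeq2 called 4 of the markers lower, and the fit of 6 libraries and limma-trend called none. Vim, the intermediate filament gene for vimentin (-0.25 ± 0.05, adjusted p = 0.10), the collagen receptor gene Ddr2 (-0.31 ± 0.06, adjusted p = 0.072) and the neural cadherin gene Cdh2 (-0.34 ± 0.08, adjusted p = 0.18) were lower without overlap and not called, while the surface marker gene Thy1 was higher without overlap and not called (0.50 ± 0.14, adjusted p = 0.35). In all, 7 of the 15 were lower and 2 higher without overlap, against 5.6% and 5.49% of all genes. The summed level of 9 defining fibroblast markers was 15.4 to 18.3 TPM in Zfp352-KO, 13.7 to 16 TPM in Zfp352/Zfp353-DKO and 26.9 to 31.6 TPM in Parental libraries. Of these markers, 7 were tested and 1, Col1a2, was called; Lum was under 0.1 TPM in all 6 libraries. The part of such cells in the lower actin and matrix values was not tested.

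**Figure D3:**
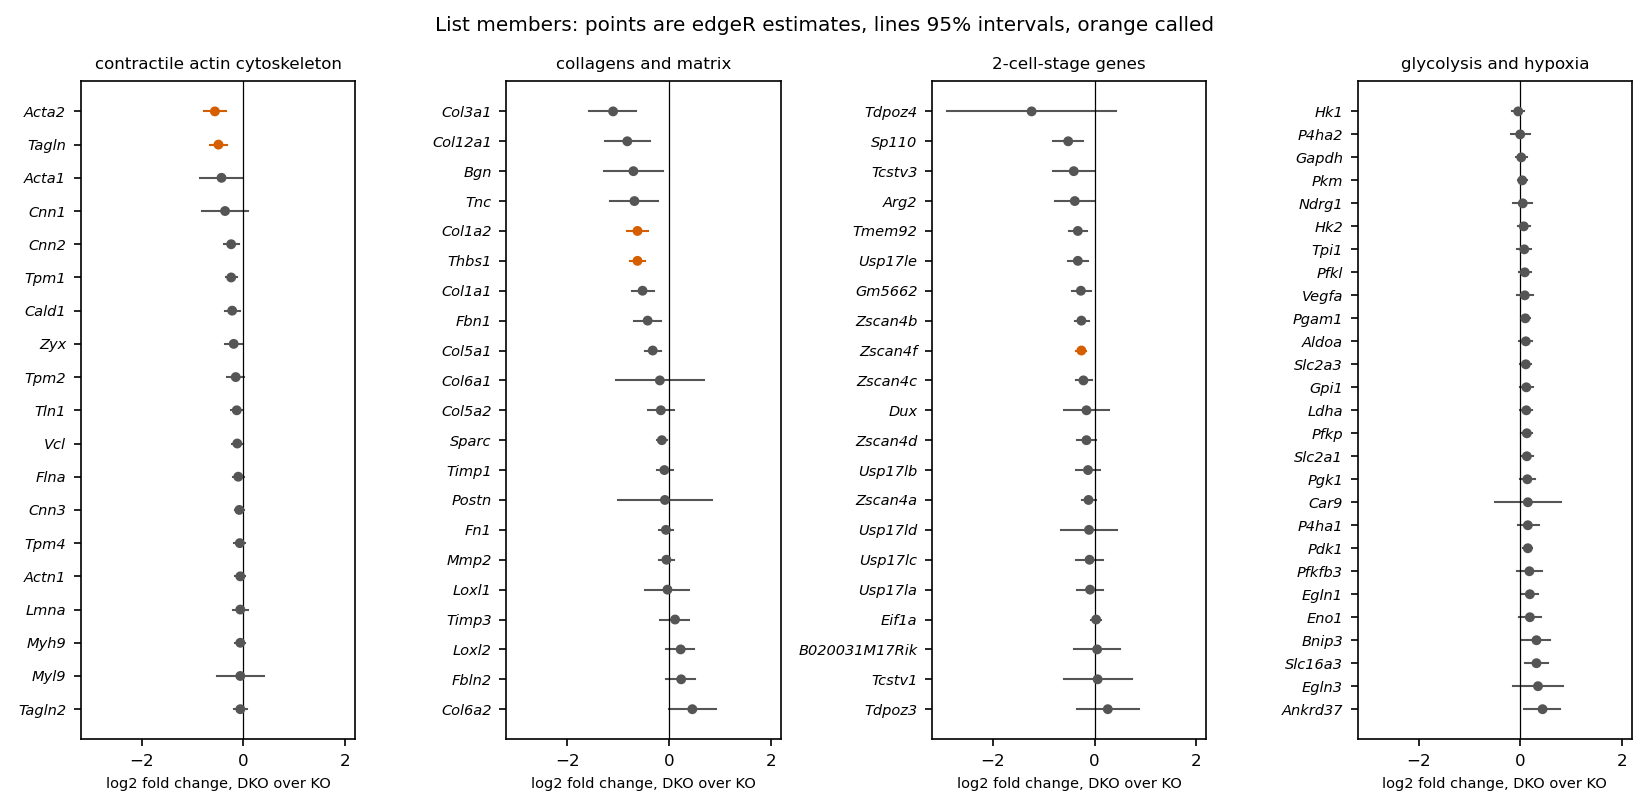
Log2 fold changes of Zfp352/Zfp353-DKO over Zfp352-KO for the tested members of 4 gene lists, with 95% intervals; called genes are orange. All 19 contractile actin genes lie under 0 and 26 of 27 glycolysis and hypoxia genes lie over 0; Gm4340 of the 2-cell-stage list, with 0 counts in every Zfp352/Zfp353-DKO library, is not drawn.

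Simple epithelial genes and targets of YAP and TEAD, which respond to cell spreading, had no call in the main fit. Of 15 epithelial genes none was called in the main fit or by DESeq2, with a median of -0.11. With the trend in GC content and length removed, edgeR called 1 lower, Krt18. In the main fit 6 had an unadjusted p under 0.05, all lower, against 3.38% of all genes. Lower without overlap were 7, against 5.6% of all genes. Among these were the keratin genes Krt18 (-0.26 ± 0.07, adjusted p = 0.31) and Krt8 (-0.21 ± 0.07, adjusted p = 0.47). Of 16 YAP and TEAD target genes none was called by edgeR or DESeq2, with a list median of -0.14. An unadjusted p under 0.05 was found for 2, both lower, against 3.38% of all genes.

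Transcripts of the 2-cell-like state were lower in Zfp352/Zfp353-DKO cells in 1 called gene. Zscan4f, of a zinc finger family transcribed in bursts in embryonic stem cells and known for telomere maintenance, was at 151.11, 144.15 and 142.51 TPM in Zfp352-KO and at 118.30, 123.05 and 122.27 TPM in Zfp352/Zfp353-DKO libraries. The groups did not overlap, and the Parental libraries were at 108.24, 106.24 and 116.98 TPM. Zscan4f fell by 0.26 ± 0.05 on the log2 scale (adjusted p = 0.026). Relative to Parental cells Zscan4f was at 0.36 ± 0.05 in Zfp352-KO, while the Zfp352/Zfp353-DKO value was 0.09 ± 0.05 (adjusted p = 0.21). Zscan4 family members are similar in sequence, and a read that fits several of them is apportioned by RSEM, so the value of a single member is uncertain.

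Of 22 tested 2-cell-stage genes, Zscan4f was the 1 called, in the main fit and by DESeq2, and the list median was -0.19. Of all genes 0.0909% were called lower. A further 6 were lower without overlap and were not called, among them Zscan4b (-0.26 ± 0.07, adjusted p = 0.24), the membrane protein gene Tmem92 (-0.33 ± 0.09, adjusted p = 0.25) and Sp110 (-0.52 ± 0.14, adjusted p = 0.30). None was higher without overlap. Over all genes, 5.6% were lower and 5.49% higher without overlap. Gm4340 had 152, 73 and 0 rounded counts in Zfp352-KO libraries and 0 in every Zfp352/Zfp353-DKO library, so its Zfp352-KO libraries disagreed by as much as the genotypes; with Gm4340 set at a floor of 3 counts over the group the list median stayed at -0.19. Tdpoz4 was at 0.11, 0.36 and 0.41 TPM in Zfp352-KO and 0, 0.18 and 0.20 TPM in Zfp352/Zfp353-DKO libraries, which overlapped (-1.24 ± 0.80, adjusted p = 0.89). Tcstv3 (-0.41 ± 0.20, adjusted p = 0.76) and the mesoderm factor gene T (-0.44 ± 0.46, adjusted p = 0.95) overlapped as well. The estimate for T turned to 0.06 when Zfp352-KO library 1 and Zfp352/Zfp353-DKO library 3 were both left out.

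**Figure D4:**
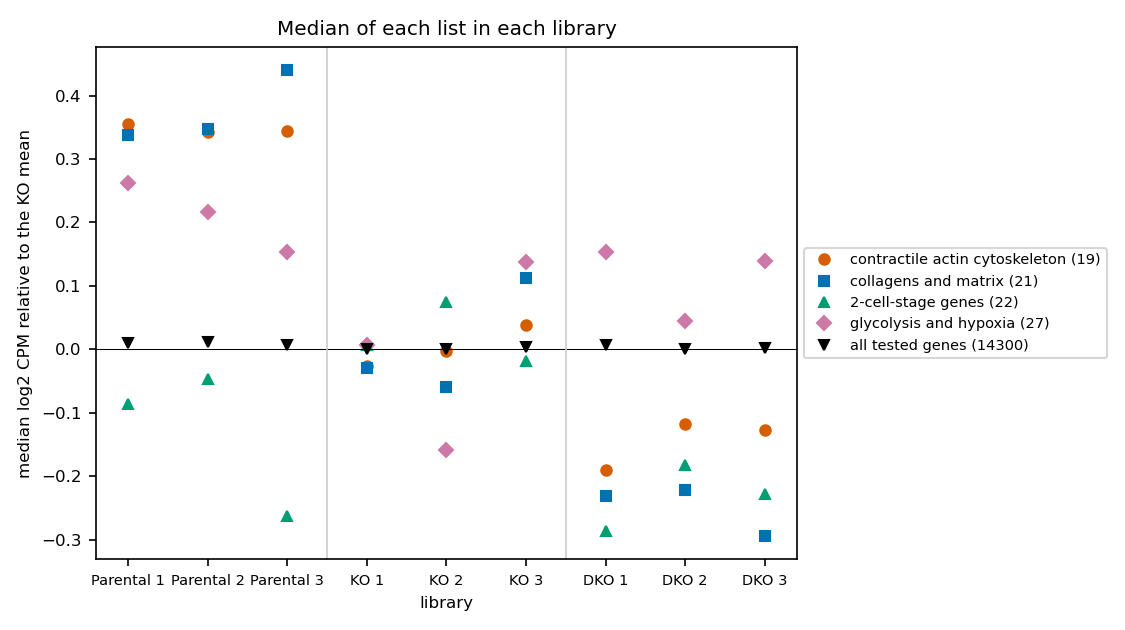
Median log2 CPM of 4 gene lists and of all 14300 tested genes in each library, relative to the mean of the 3 Zfp352-KO libraries (0 on the axis); the number of genes is in the key. Contractile actin genes lie at -0.191 to -0.117 in Zfp352/Zfp353-DKO and at 0.343 to 0.356 in Parental libraries, and glycolysis genes of Zfp352-KO libraries run from -0.158 to 0.137 and overlap the Zfp352/Zfp353-DKO libraries.

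Per library, the median of the contractile actin list relative to the Zfp352-KO mean was -0.191, -0.117 and -0.127 in Zfp352/Zfp353-DKO libraries 1, 2 and 3 and between -0.027 and 0.038 in Zfp352-KO libraries. The matrix list was at -0.232, -0.222 and -0.294 in Zfp352/Zfp353-DKO libraries and between -0.059 and 0.112 in Zfp352-KO libraries. By these medians the Parental libraries lay above the Zfp352-KO libraries in both lists, at 0.338 to 0.44 for matrix genes. The summed level, which the most abundant members set, did not separate the genotypes for matrix genes: it was 585, 549 and 508 TPM in Zfp352-KO, 499, 487 and 539 TPM in Zfp352/Zfp353-DKO and 539, 519 and 581 TPM in Parental libraries. For actin genes the sums were 1230, 1220 and 1200 TPM in Zfp352-KO and 1080, 1110 and 1150 TPM in Zfp352/Zfp353-DKO libraries, without overlap. The 2-cell-stage list was at -0.286, -0.183 and -0.228 in Zfp352/Zfp353-DKO, between -0.018 and 0.075 in Zfp352-KO and at -0.086, -0.046 and -0.262 in Parental libraries, so here the Parental and Zfp352/Zfp353-DKO ranges overlapped.

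The other lower calls belonged to several functions. Nes, the intermediate filament gene for nestin of neural progenitors, was at 12.39, 13.48 and 13.45 TPM in Zfp352-KO and at 9.68, 9.97 and 10.83 TPM in Zfp352/Zfp353-DKO libraries (-0.37 ± 0.07, adjusted p = 0.032). It was the 1 call among 8 tested neural progenitor genes, against 0.0909% of all genes called lower. Stk31, a kinase gene of the germline, was at 17.24, 17.29 and 15.84 TPM and at 11.16, 11.90 and 14.46 TPM (-0.42 ± 0.08, adjusted p = 0.034). Its Zfp352-KO values lay among the Parental values of 17.59, 18.13 and 16.72 TPM apart from library 3. It was the 1 call among 21 germline and meiosis genes, against the same share of 0.0909%. Neither Nes nor Stk31 was called in the fit of 6 libraries or by limma-trend. Adgra3, an adhesion G protein-coupled receptor gene, was at 3.97, 3.70 and 3.75 TPM and at 2.13, 2.85 and 2.69 TPM (-0.57 ± 0.11, adjusted p = 0.034). The serine protease gene Prss23 was at 2.68, 2.78 and 2.73 TPM and at 1.67, 1.59 and 1.67 TPM (-0.73 ± 0.14, adjusted p = 0.035). In these 4 genes no Zfp352/Zfp353-DKO library reached the lowest Zfp352-KO library. Gm8994, a gene that RefSeq names Eif4a3l1, was at 27.43, 27.14 and 26.74 TPM and at 19.72, 21.73 and 19.54 TPM (-0.41 ± 0.07, adjusted p = 0.034). Its name marks it as similar to Eif4a3, an RNA helicase gene of the exon junction complex whose own estimate was -0.01 ± 0.05, and reads shared between them may have been divided.

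On the higher side, Ntn1 had the firmer values. Ntn1 encodes netrin 1, a secreted guidance cue that binds DCC and UNC5 receptors. It was at 8.90, 8.05 and 7.46 TPM in Zfp352-KO and at 11.34, 10.19 and 11.10 TPM in Zfp352/Zfp353-DKO libraries, with the Parental libraries at 7.60, 7.43 and 8.07 TPM. No Zfp352/Zfp353-DKO library overlapped the others. Ntn1 rose by 0.43 ± 0.07 on the log2 scale (adjusted p = 0.015). Against Parental cells the log2 fold change was 0.03 ± 0.07 for Zfp352-KO (adjusted p = 0.84), and that for Zfp352/Zfp353-DKO was 0.46 ± 0.07 (adjusted p = 0.00023).

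Rpl26, a gene for a protein of the large ribosomal subunit, was called at 1.59 ± 0.29 (adjusted p = 0.034), from 9.94, 18.31 and 3.93 TPM in Zfp352-KO to 30.08, 36.98 and 31.35 TPM in Zfp352/Zfp353-DKO libraries. Its expected counts were multiples of 20.36, namely 2, 5 and 1 such steps in Zfp352-KO libraries, 8, 9 and 7 in Zfp352/Zfp353-DKO libraries and 7, 11 and 10 in Parental libraries. Tested as numbers of steps, an alternative chosen after seeing the data, the log2 fold change was 1.54 ± 0.55 and the gene was not called (adjusted p = 0.59). DESeq2 did not call it either.

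With 2 calls on the higher side, the 10 genes there with the smallest unadjusted p under the naming rule are given by their values. Beyond Ntn1, Rpl26 and H19, these were Gli1, Hnrnpa0, Cebpb, Dnd1, H1fx, Slc29a1 and Rab31, none of them called in the main fit. DESeq2 called Hnrnpa0 and Cebpb. With the trend in GC content and length removed, the edgeR calls included Gli1, Hnrnpa0 and Slc29a1. Hnrnpa0, a gene for an RNA-binding protein, was at 0.21 ± 0.05 (adjusted p = 0.10), and the small GTPase gene Rab31 at 0.23 ± 0.06 (adjusted p = 0.23). Gli1, a transcription factor gene and target of Hedgehog signalling, was at 16.54, 14.97 and 15.32 TPM in Zfp352-KO and at 20.26, 18.93 and 18.79 TPM in Zfp352/Zfp353-DKO libraries (0.32 ± 0.07, adjusted p = 0.072). Parental libraries were lower than either, at 11.83, 11.37 and 13.15 TPM. Of 13 tested Hedgehog pathway genes none was called in the main fit or by DESeq2. An unadjusted p under 0.05 was found for 1, Gli1, which was higher, against 3.04% of all genes. Cebpb, a transcription factor gene of stress and inflammatory responses, was at 6.81, 6.89 and 8.33 TPM and at 11.57, 15.59 and 9.07 TPM, where Zfp352/Zfp353-DKO library 3 lay close to the Zfp352-KO range (0.72 ± 0.17, adjusted p = 0.15). The linker histone gene H1fx was at 0.36 ± 0.08 (adjusted p = 0.16), the nucleoside transporter gene Slc29a1 at 0.20 ± 0.05 (adjusted p = 0.18) and the germ cell RNA-binding protein gene Dnd1 at 0.45 ± 0.10 (adjusted p = 0.15).

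Genes of glycolysis and the hypoxia response had no call. Of 27 tested genes none was called by edgeR or DESeq2, 26 had an estimate over 0 and the median was 0.12; 8 had an unadjusted p under 0.05, all higher, against 3.04% of all genes. The lactate transporter gene Slc16a3 (0.32 ± 0.11, adjusted p = 0.54) and the mitophagy gene Bnip3 (0.32 ± 0.13, adjusted p = 0.70) were among them. Higher without overlap were 2 of the 27, against 5.49% of all genes. The median was 0.05 without Zfp352-KO library 2, the library with the lowest values of the list.

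Of 36 gene lists described, 7 had a called member, with 1 or 2 each, and the other 29 had none in the main fit. Median log2 fold changes over these 29 ran from -0.14 for YAP and TEAD targets to 0.12 for glycolysis and hypoxia. DNA replication and mitosis (27 genes, median -0.01), DNA methylation and silencing (24 genes, -0.03) and polycomb (20 genes, 0.01) had medians close to that of all genes. So did LIF and STAT3 (14 genes, 0.01), naive pluripotency (18 genes, 0.00) and oxidative phosphorylation (27 genes, 0.02). Single members could still depart. Without overlap, 5 of 24 DNA methylation and silencing genes were lower and 0 higher. Of 18 naive pluripotency genes 3 were lower and 2 higher, against 5.6% and 5.49% of all genes. With the trend in GC content and length removed, edgeR called 1 naive pluripotency gene lower. A missed threshold does not show that the genes of these lists were equal in the edited lines. The median SE over all tested genes was 0.083 on the log2 scale, and small differences were within it.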

How the data were processed

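RNA of 9 libraries was sequenced from stranded polyadenylated-RNA libraries, per the labels' protocols. The submitters' processing notes name RSEM 1.3.3, STAR 2.7.8a, Trim Galore 0.6.6 and mm10. Settings, annotation release and strand use were not given in the sources used here. Per the file headers, the authors deposited expected counts, RSEM estimates that divide shared reads, and TPM for 24411 genes.

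After rounding, expected counts went into a quasi-likelihood fit by edgeR 4.0.16 (R 4.3.3; filterByExpr, TMM, glmQLFit, glmQLFTest). The fit held all 9 libraries, grouped by genotype, and left 6 residual degrees of freedom. Tests were two-sided, and SE come from the F statistic. Alternatives used DESeq2 1.42.0, limma 3.58.1, other scalings and filters, a replicate block, omissions and a local regression on GC content (found for 99.7% of tested genes) and transcript length, span 0.3. The edgeR script was tested on simulated data. Members, gene lists and tests were chosen with earlier results of these data known. RefSeq names (GRCm38.p6) matched 24318 genes, and promoter windows came from the same source. FPKM was not used.

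The text names Zfp352, Pou5f1, Nanog, Sox2, Col1a1, Col1a2, Tagln, T, Tdpoz4 and Tcstv3; called genes with at least 2 TPM, no overlap in CPM and no clone name, up to 15 each way; up to 4 called members of a list; and, with fewer than 5 calls in a direction, the 10 smallest p there. Gm8994, other list members, Eif4a3 and Gm4340 were chosen after their values were seen.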

Additional observations from a re-analysis of the deposited data

How the results depend on the processing

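Of 15 calls (2 higher, 13 lower), other scalings in edgeR and a filter at 50 counts gave 15 or 16. Without a filter 66 genes were called (22 higher, 44 lower), with DESeq2 23 (20 lower), with limma-trend on log2(TPM + 1) or log2(TPM + 0.1) 1 (0 higher, 1 lower), and with the 6 libraries alone 3 (0 higher, 3 lower). After removal of the trend in GC content and length 55 were called (10 higher, 45 lower), including all 15. Thresholds of 0.01, 0.1 and 0.05 with at least 1.5-fold gave 3 (0 higher, 3 lower), 26 (23 lower) and 5 (1 higher, 4 lower). Leaving out each library gave 3 to 21 calls, 0 to 8 higher and 3 to 14 lower. With Zfp352-KO library 1 and Zfp352/Zfp353-DKO library 3 both left out, chosen after seeing the data, 10 were called (8 lower), 8 of them among the 15. The cause of these shifts was not tested. Where an omission left 2 libraries in a genotype, the spread came from all libraries in the fit.

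The replicate numbers are shared by the genotypes, but same-numbered Zfp352-KO and Zfp352/Zfp353-DKO libraries did not deviate together (r of -0.0767, 0.038 and -0.076 across genes), so the numbers were not taken as pairs. With a replicate block 11 genes were called (3 higher, 8 lower), 8 of them among the 15, and with the block and the trend removal 45 (8 higher, 37 lower). The difference in Zfp352 on the log2(TPM + pseudocount) scale was -1.18 with a pseudocount of 0.1 and -0.27 with 1, with an exact permutation p of 0.1 in both. Among the named genes, which alone were followed through the settings, the direction of 2 uncalled genes turned. Pou5f1 turned to -0.01 with the trend removed, with or without the block. It was at -0.02 without Zfp352-KO library 1 or Zfp352/Zfp353-DKO library 1 (omissions ranged from -0.02 to 0.07). T turned to 0.06 with Zfp352-KO library 1 and Zfp352/Zfp353-DKO library 3 both left out. Some list medians near 0 turned as well, such as primitive streak and mesoderm from -0.1 to 0.06 with that same omission. Depth limits genes at a few counts, such as Zfp352, T and Tdpoz4.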
